A study of Mus musculus with 7 samples.

Results

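Major histocompatibility complex (MHC) and antigen presentation genes were compared between PRA transgenic mice and wild-type littermates, in RNA of the mammary gland. The members were all non-control array probes whose gene name starts with H2-, the prefix of the mouse MHC, together with those for B2m, Tap1, Tap2, Tapbp, Tapbpl, Cd74, Ciita, Nlrc5, Rfx5, Rfxap, Rfxank and Cd1d1. This gave 89 of 56605 probes, for 54 genes. Of these, 62 probes for 43 genes had a gland signal clearly over background on each array of 1 genotype or of both, and were tested among 34289 such probes.

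Both genotypes were nulliparous FVB littermates of 20 to 25 weeks in diestrus, and RNA came from 1 abdominal gland per animal after its lymph nodes had been cut out. There were 3 wild-type and 4 PRA transgenic animals, with 1 array each. PRA transgenics are bigenic: the CMV promoter drives GAL-4, and GAL-4 turns on a UAS-linked gene for progesterone receptor isoform A, so the extra receptor is not tied to a mammary cell type. Gland RNA was labeled with Cy5 and hybridized beside Universal Mouse Reference RNA in Cy3, which pools 11 mouse cell lines, and values are log2 ratios of gland over reference. All 7 arrays lay on 1 slide, wild-type in row 1 and PRA transgenic in row 2, and the effect of the row cannot be told apart from that of genotype.

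MHC class I molecules are carried by nearly all nucleated cells and show peptides made inside the cell to CD8 T cells. Their heavy chains pair with beta-2 microglobulin (B2m) and receive peptides that the transporter Tap1/Tap2 brings into the endoplasmic reticulum, where tapasin (Tapbp) helps load them. Class II molecules show peptides from endocytosed material to CD4 T cells and are made mainly by dendritic cells, macrophages and B cells, with Ciita as their master regulator, while Nlrc5 acts on class I. In the mammary gland such cells lie among epithelium and fat, and in whole-gland RNA fewer cells of a type and less RNA per cell cannot be told apart.

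Of the 62 member probes tested, none rose in PRA transgenic glands at an unadjusted limma P under 0.05 and 1 fell, that of H2-Q1. Over all probes tested, 4.54% were higher and 4.48% lower at this threshold, 9.02% in all. After Benjamini-Hochberg adjustment over all probes 0 members passed 0.05 (0.0117% of all probes did), and the lowest adjusted p of a member was 0.453. Log2 fold changes of PRA transgenic over wild-type were positive for 31 probes and negative for 31, and ran from -0.75 to 0.54. Taking the brightest probe of each gene, the median over 43 genes was -0.02, beside 0.01 over all genes and unnamed features tested. The 95% interval lay between -1 and 1, that is within 2-fold either way, for 36 of the 43 genes. It was wider or reached further for H2-Aa, H2-M9, H2-Oa, H2-Ob, H2-Q1, H2-T18 and Rfx5. Quantile normalization between arrays gave 9 member probes higher and 1 lower at P under 0.05, beside 6.73% and 4.08% of all probes. The 9 were probes of H2-Ab1, H2-Bl, H2-Q10, H2-Q7 and Tapbpl, several of them of the same gene. Again no member passed after adjustment.

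**Figure D1:**
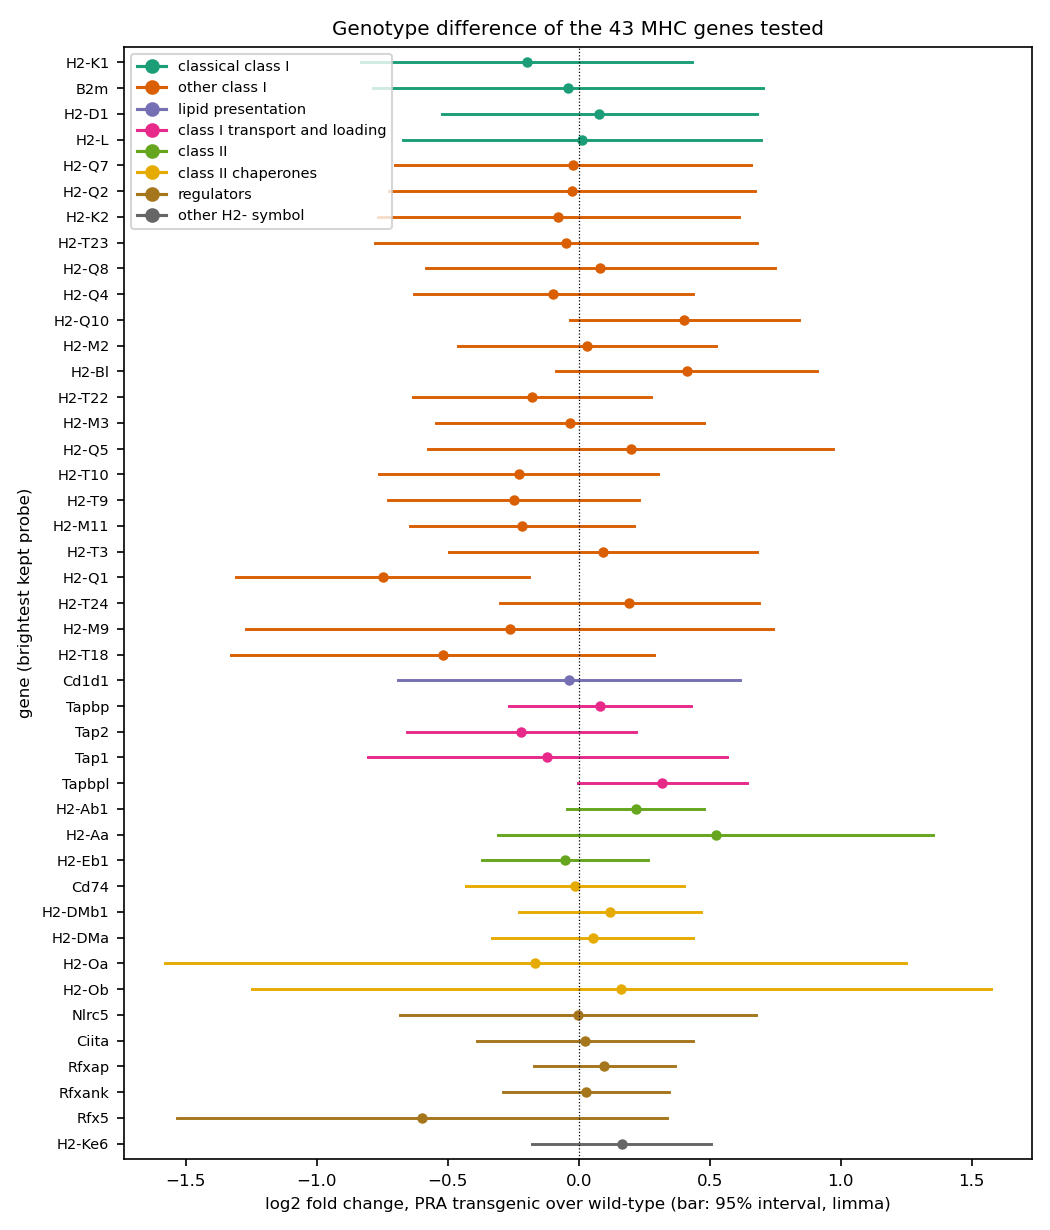
Log2 fold change of PRA transgenic over wild-type (x axis) for the brightest tested probe of each of the 43 genes (y axis), with the 95% interval from limma, colored by role. The interval of H2-Q1 alone leaves out 0, and 36 of the 43 intervals lie between -1 and 1.

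The genotypes did not overlap for 2 probes that were higher (Tapbpl and the brightest H2-Ab1 probe) and 1 that was lower (Rfx5) in PRA transgenic glands. Over all probes 9.95% did not overlap, 5.42% higher and 4.53% lower. The count for the members, 4.84%, was below that background.

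Classical class I genes stood well above the reference in both genotypes. All 7 probes of H2-K1, H2-D1, H2-L and B2m were tested, none passed P under 0.05, and all had positive ratios, that is more signal in the gland than in the reference, on all arrays. H2-K1 encodes a heavy chain, and its brightest probe (A_51_P198434) lies on chromosome 17 of mm9, 34133055 to 34133114. H2-K1 had log2 ratios of 3.19, 3.81 and 3.50 in wild-type glands and 3.90, 2.85, 3.28 and 3.18 in PRA transgenic glands. The highest and the lowest value were both transgenic. The log2 fold change was -0.20, with a standard error (SE) of 0.27 and an adjusted p of 0.876 from limma. H2-D1, another heavy chain (probe A_65_P19395, chromosome 17, 35403886 to 35403945), had values of 3.29, 3.85 and 3.15 against 3.93, 3.06, 3.66 and 3.40, a log2 fold change of 0.08 (SE 0.26, adjusted p = 0.961). B2m, the light chain shared by all class I molecules, lies outside the complex (probe A_51_P129012, chromosome 2, 121978401 to 121978460). Its ratios were 2.11, 3.03 and 2.34 in wild-type and 3.09, 1.97, 2.37 and 2.37 in PRA transgenic glands, with a log2 fold change of -0.04 (SE 0.32, adjusted p = 0.986). For H2-K1, H2-D1 and B2m the wild-type range by these probes lay within the transgenic range.

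**Figure D2:**
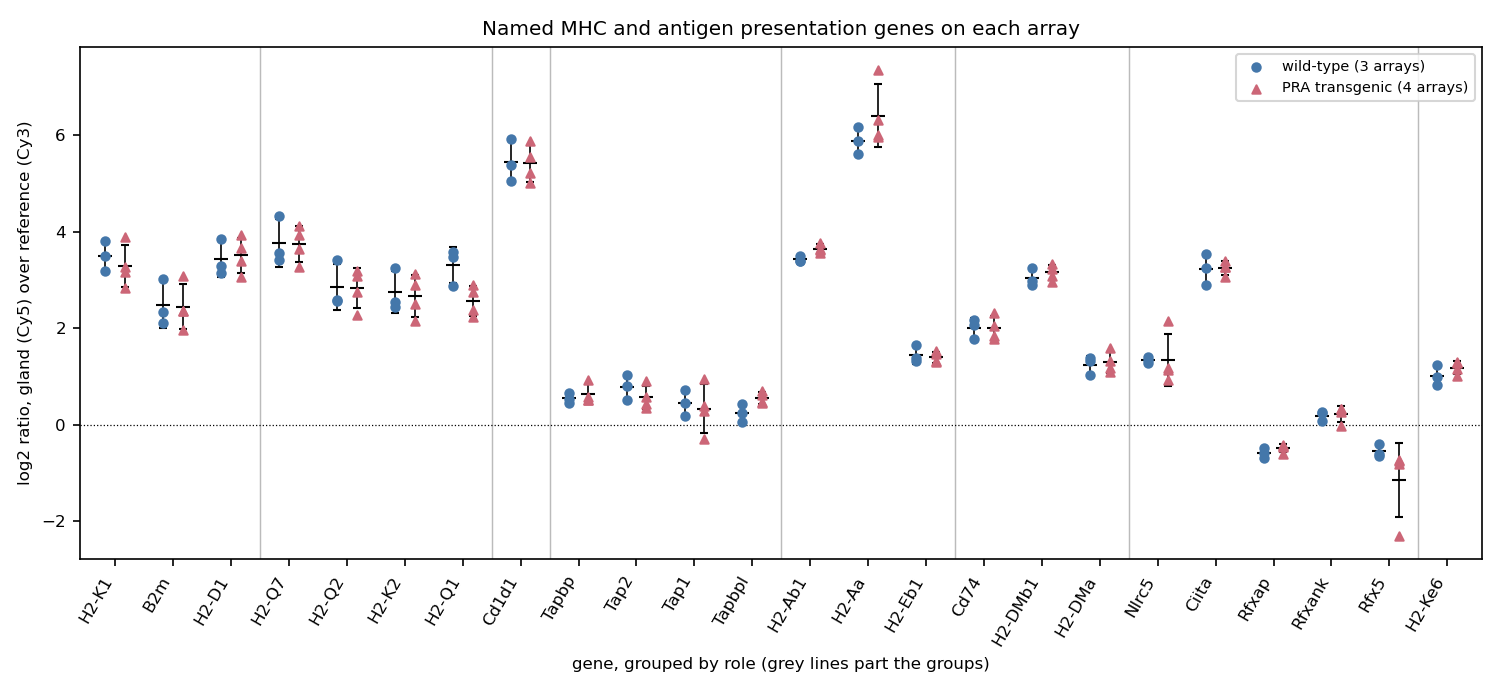
Log2 ratio of gland (Cy5) over reference (Cy3) on each array (y axis) for 24 named genes (x axis), with circles for 3 wild-type and triangles for 4 PRA transgenic arrays, and the mean with its SD in black. Levels are not comparable between genes. Rfx5 and Rfxap lay below the reference on all arrays, and no gene but Rfx5, Tapbpl and H2-Ab1 had genotypes that did not overlap.

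Class I values varied between animals of 1 genotype. Within each genotype the same gland tended to be highest for many of these genes, wild-type replicate 2 and PRA transgenic replicate 1, a pattern picked out once the values had been seen. Both were highest for 6 of the 7 classical probes, for 14 of the 27 other class I probes and for 24 of all 62 members, beside 15.6% of all probes tested. In the Cy5 channel alone they were highest for 28 members, beside 16.2% of all probes. PRA transgenic replicate 2 was the lowest transgenic gland for all 7 classical probes, for 21 of the 27 other class I probes and for 40 of the 62 members, beside 27.7% of all probes. The mean log2 ratio over the 24 class I genes was 1.85, 2.18 and 1.70 in wild-type and 2.17, 1.48, 1.93 and 1.83 in PRA transgenic glands. Its range within the transgenic group was thus wider than the difference between the genotype means, which was -0.06. Without PRA transgenic replicate 2, 6 member probes were higher at P under 0.05 and 1 lower, beside 4.01% and 3.57% of all probes. The 6 were probes of H2-Bl, H2-Q10, H2-Q7 and H2-T24, and none passed after adjustment.

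Adipocyte markers (Adipoq, Plin1, Fabp4, Lep and Retn, 5 of 5 tested) had mean log2 ratios of 5.43, 5.64 and 5.35 in wild-type and 6.03, 5.39, 5.62 and 5.60 in PRA transgenic glands. This mean too was highest in wild-type replicate 2 and PRA transgenic replicate 1 and lowest among transgenics in replicate 2. By gene, Adipoq, Plin1, Fabp4 and Retn had their highest wild-type ratio in replicate 1. Lep had it in replicate 2, at 2.21 against 0.56 in replicate 1. In the gland channel alone each of these genes was highest among wild-type glands in replicate 2. Endothelial markers (5 of 5 tested) had means of 5.13, 4.95 and 4.66 and of 5.25, 4.40, 4.96 and 5.06. By ratio they were highest among transgenics in replicate 1, lowest there in replicate 2, and highest among wild-type glands in replicate 1. In the gland channel alone PRA transgenic replicate 4 and wild-type replicate 2 were the highest of their groups, and PRA transgenic replicate 2 was again the lowest transgenic. The part of fat or vessels in the class I spread was not tested.

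**Figure D3:**
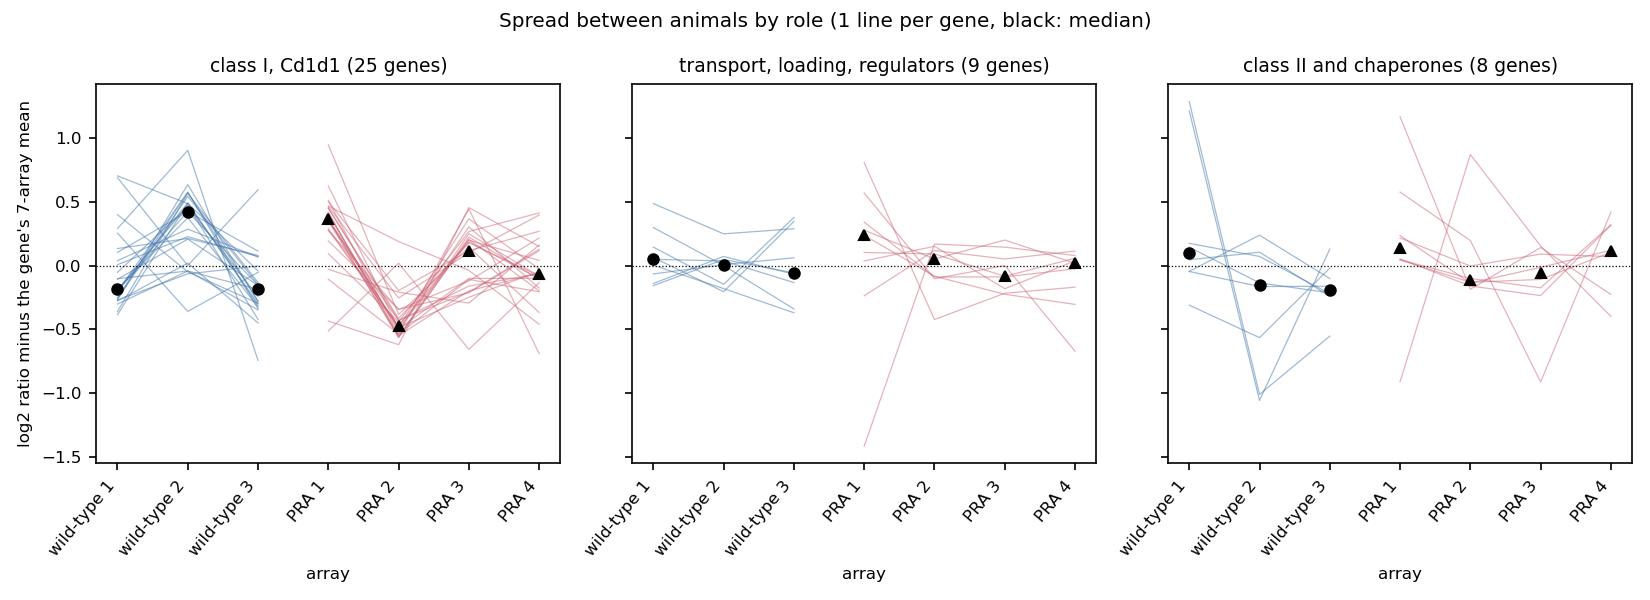
Log2 ratio of each gene minus its mean over the 7 arrays (y axis) by array (x axis), 1 line per gene, for 25 class I and Cd1d1 genes, 9 transport, loading and regulator genes and 8 class II and chaperone genes, with the median in black. The median line of class I is highest in wild-type replicate 2 and PRA transgenic replicate 1 and lowest in PRA transgenic replicate 2.

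Several class I probes are alike in sequence. The brightest B2m probe and the Cd1d1 probe, which followed the same course, are not among them. The other B2m probe followed it among transgenic glands only, at 1.72, 0.89, 1.36 and 1.27 in replicates 1 to 4. Among wild-type glands it was lowest in replicate 2, at 1.38 against 1.62 and 1.64. The part of likeness in sequence in the common course across arrays was not tested. The 30-base stretches below are parts of probes for different genes that align with each other, and the capitals mark positions at which they differ within a set.
H2-T23: ATcatcCttggagctgtggtggCttttgtg
H2-L: GCcatcAttggagctgtggtggCttttgtg
H2-Q8: GCcatcAttggagctgtggtggAttttgtg
H2-Q7: tcaTGTCtctcctgtgacatccagagCcct
H2-K2: tcaCACAtctcctgtgacatccagagAcct
The brightest probes of H2-L and H2-T23 overlapped by 54 of their 60 bases, 48 of them identical, and those of H2-K2 and H2-Q7 by 36 bases with 31 identical. Both H2-L probes listed a transcript accession that the H2-D1 probe also listed, 1 of them also shared one with H2-K2, and H2-T9 shared 2 with H2-T22. FVB mice also carry another MHC haplotype than C57BL/6, the strain of the mouse reference genome, and how well each probe matches the FVB allele was not analysed here. Values of these genes are therefore uncertain as to which class I gene they measure.

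The promoters of H2-K1, H2-D1 and H2-Q7 are shown because these are the member genes in which both motifs described next were found. Class I promoters are known to hold a kappaB site, bound by NF-kappaB, next to an interferon response element, bound by IRF factors, and the capitals mark both motifs in sequence from RefSeq (GRCm38.p6).
H2-K1, minus strand, chr17:34000409-34000468: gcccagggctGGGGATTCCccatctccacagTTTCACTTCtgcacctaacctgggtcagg
H2-D1, plus strand, chr17:35262913-35262972: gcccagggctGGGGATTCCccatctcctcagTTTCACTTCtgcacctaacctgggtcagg
H2-Q7, plus strand, chr17:35439012-35439071: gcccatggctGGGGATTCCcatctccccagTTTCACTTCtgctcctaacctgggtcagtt
Searched on both strands of the 250 bases before the start, GGGGATTCC was found in 70 of 32851 promoters (0.213%) and in 3 of the 35 member genes with a promoter sequence, these 3. TTTCACTTC was found in 132 promoters (0.402%) and in 6 member genes, H2-K1, H2-D1, H2-Q4, H2-Q7, H2-Q10 and H2-M3. H2-Q2, H2-T23 and B2m, whose brightest probes were also highest in wild-type replicate 2 and PRA transgenic replicate 1, had neither motif. The part of these motifs in the course across arrays was not tested. A match of letters is a description and does not show that a factor binds in the gland.

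Other class I genes, the Q, T and M families and H2-K2, include molecules with restricted or unknown roles and several pseudogenes. Of 44 probes for 28 genes, 27 probes for 20 genes were tested, 13 with positive and 14 with negative log2 fold changes. H2-Q7, which encodes the Qa-2 antigen, had log2 ratios of 3.55, 4.33 and 3.42 in wild-type and 4.13, 3.27, 3.94 and 3.66 in PRA transgenic glands (log2 fold change -0.02, SE 0.29, adjusted p = 0.993). The ranges of the groups overlapped. Over the 3 tested probes of H2-Q7 the log2 fold change ran from -0.08 to 0.35. Another of these probes was higher at P under 0.05 in limma with quantile normalization and without PRA transgenic replicate 2. H2-Q2 and H2-K2, the next brightest genes of this group, had log2 fold changes of -0.03 (SE 0.30) and -0.08 (SE 0.29), and their genotypes overlapped as well. Without wild-type replicate 2, the highest wild-type array, the log2 fold change of H2-Q7 was 0.26.

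H2-Q1 was the member with the lowest P. Its probe (A_55_P1978502, chromosome 17, 35461859 to 35461918) had log2 ratios of 3.58, 2.89 and 3.48 in wild-type and 2.38, 2.91, 2.23 and 2.75 in PRA transgenic glands. Of the transgenic values only that of replicate 2 lay above the lowest wild-type value, by a narrow margin. The log2 fold change was -0.75 (SE 0.24, unadjusted P = 0.0156, adjusted p = 0.453 from limma). For this probe the reference channel was above background on 0 arrays, and it differed by 0.49 on the log2 scale between genotypes, whereas the gland channel alone differed by -0.27 (unadjusted P = 0.316). After normexp background correction and loess the log2 fold change was 0.05. H2-Q1 also missed P under 0.05 without wild-type replicate 1 (log2 fold change -0.62) and without wild-type replicate 3 (-0.67). In all, 8 of the 62 tested member probes had a reference signal well above background on no array, those of H2-Bl, H2-M2, H2-M9, H2-Ob, H2-Q1 and H2-T18 and 2 of Ciita, and their ratios rest on a dim denominator.

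Probes of H2-Q10, a class I molecule secreted mainly by the liver, were picked out once the values had been seen. All 3 tested probes had positive log2 fold changes, 0.40 (SE 0.19), 0.31 (SE 0.17) and 0.44 (SE 0.22), with adjusted p of 0.588, 0.649 and 0.612 from limma. The brightest, A_52_P428354, had values of 2.23, 2.49 and 2.18 in wild-type and 3.03, 2.34, 2.65 and 2.80 in PRA transgenic glands. PRA transgenic replicate 2 lay within the wild-type range, so the genotypes overlapped, and without it all 3 probes were higher at P under 0.05. With quantile normalization they were as well. Another H2-Q10 probe was well above background in wild-type replicate 1 only and so was not kept. In the limma fit with no filter on dim probes it was lower at P under 0.05. Probes of 1 gene are not replicates of it.

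Cd1d1, an MHC-like molecule that shows lipids to natural killer T cells, followed the class I course. Its ratios were 5.05, 5.92 and 5.39 in wild-type and 5.88, 5.01, 5.23 and 5.56 in PRA transgenic glands, and the log2 fold change was -0.04 (SE 0.28, adjusted p = 0.987). Wild-type replicate 2 and PRA transgenic replicate 1 were again the highest of their groups. H2-Ke6, a dehydrogenase gene inside the complex with no role in antigen presentation, had a log2 fold change of 0.17 (SE 0.15) with overlapping genotypes.

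Of the genes for peptide transport and loading, 6 of 7 probes were tested, and none passed P under 0.05. Tap1, a transporter subunit, had log2 ratios of 0.45, 0.18 and 0.73 in wild-type and 0.95, 0.28, 0.39 and -0.29 in PRA transgenic glands. The highest and the lowest were both transgenic, and the log2 fold change was -0.12 (SE 0.29, adjusted p = 0.944). Tap2, the partner subunit, differed by -0.22 (SE 0.19) and Tapbp, the tapasin gene, by 0.08 (SE 0.15), with overlapping genotypes. Tapbpl encodes TAPBPR, a peptide editor related to tapasin (probe A_51_P505795, chromosome 6, 125174614 to 125174673). Tapbpl had values of 0.43, 0.25 and 0.06 in wild-type and 0.70, 0.48, 0.63 and 0.44 in PRA transgenic glands, which did not overlap although 0.43 and 0.44 almost met. Its log2 fold change was 0.32 (SE 0.14, unadjusted P = 0.0519, adjusted p = 0.558 from limma), and the gland channel alone gave 0.33, with genotypes that overlapped.

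Class II genes were present in both genotypes. Of 9 probes for 5 genes, 6 probes for H2-Aa, H2-Ab1 and H2-Eb1 were tested, all with positive ratios on all arrays, and none passed P under 0.05. H2-Ab1 encodes the beta chain of I-A (probe A_55_P1962747, chromosome 17, 34406296 to 34406355), and its log2 ratios were 3.51, 3.39 and 3.40 in wild-type and 3.77, 3.55, 3.65 and 3.63 in PRA transgenic glands. All transgenic values lay above the wild-type ones. Its log2 fold change was 0.22 (SE 0.11, adjusted p = 0.617), and its spread between animals was small, with SDs of 0.07 (n = 3) and 0.09 (n = 4). In the gland channel alone it was also 0.22, but the genotypes overlapped. Its 3 other probes gave 0.21, 0.13 and -0.21, with overlapping genotypes, and the second of these overlaps the brightest probe by 51 bases.

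H2-Aa encodes the alpha chain of I-A (probe A_52_P343306, chromosome 17, 34421285 to 34421344). Its ratios were 5.87, 5.62 and 6.16 in wild-type and 7.35, 6.0, 6.33 and 5.96 in PRA transgenic glands, so that PRA transgenic replicate 1 stood above all others. The log2 fold change of 0.52 (SE 0.35, adjusted p = 0.713) fell to 0.21 without that array. The reference did not rise above background there, and in the gland channel alone the difference was 0.19. H2-Eb1, the beta chain of I-E, had values of 1.38, 1.66 and 1.32 in wild-type and 1.47, 1.29, 1.32 and 1.53 in PRA transgenic glands, which overlapped (log2 fold change -0.05, SE 0.13, adjusted p = 0.947).

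The promoter of H2-Eb1 is shown with letters of the X box, where RFX factors bind, and of CCAAT boxes, bound by NF-Y, on either strand in capitals, since the factors that read them are members or were counted beside them.
H2-Eb1, plus strand, chr17:34305764-34305841: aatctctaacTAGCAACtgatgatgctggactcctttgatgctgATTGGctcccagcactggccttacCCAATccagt
TAGCAAC was found in 1038 of 32851 promoters (3.16%) and in 3 member genes, H2-Ob, H2-Eb1 and H2-Eb2. CCAAT was found in 11120 promoters (33.8%) and in 31 of the 35 member genes.

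Of the class II chaperones, Cd74 (the invariant chain, which fills the class II groove until peptide is loaded) had ratios of 2.18, 2.08 and 1.79 in wild-type and 2.06, 1.85, 1.77 and 2.32 in PRA transgenic glands. Cd74 differed by -0.02 (SE 0.18, adjusted p = 0.991), with overlapping genotypes. H2-DMa and H2-DMb1, the chains of the peptide exchanger DM, differed by 0.05 (SE 0.16) and 0.12 (SE 0.15). H2-Oa and H2-Ob, the chains of the DM inhibitor DO, had the widest spread and are named for it after their values were seen. H2-Oa had ratios of 2.29, 0.02 and 1.21 in wild-type and 0.17, 1.95, 1.23 and 0.68 in PRA transgenic glands, and H2-Ob 2.62, 0.33 and 0.78 against 1.91, 1.53, 0.43 and 1.76. Wild-type replicate 1 was the highest array for both.

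Wild-type replicate 1 also held member probes that rose above background nowhere else. Of the 27 member probes not tested, 18 were well above background on no array and 6 in wild-type replicate 1 only, those of H2-DMb2, H2-Ob, H2-Q10 and 3 of H2-T3. That is 22.2% of the members not tested, beside 4.49% of all probes not tested. A probe of H2-Eb2 and that of H2-Ea-ps, a pseudogene by its symbol, were well above background in wild-type replicates 1 and 2 only, and H2-M5 in PRA transgenic replicate 1 only. DO is made chiefly by B cells, and the TL antigen encoded by H2-T3 is known from thymocytes and gut epithelium. The same array stood apart in lymphocyte markers. T cell markers (9 of 9 tested) had mean log2 ratios of 2.12, -0.12 and 0.29 in wild-type and -0.01, 0.04, -0.45 and -0.28 in PRA transgenic glands. Their summed Cy5 level, in units of each array's 75th percentile, was 32.8 in wild-type replicate 1 and 7.36 to 9.81 on the others. B cell markers (5 of 6 tested, with Cd79a not well above background) had a mean of 0.76 in wild-type replicate 1 and means of -1.08 to -0.43 on the others, and summed levels of 12.7 and of 2.72 to 3.54. The part of these cells in the members seen on this array was not tested. Without it, 1 member was higher at P under 0.05, Tapbpl, and none lower, beside 3.85% and 4.39% of all probes.

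**Figure D4:**
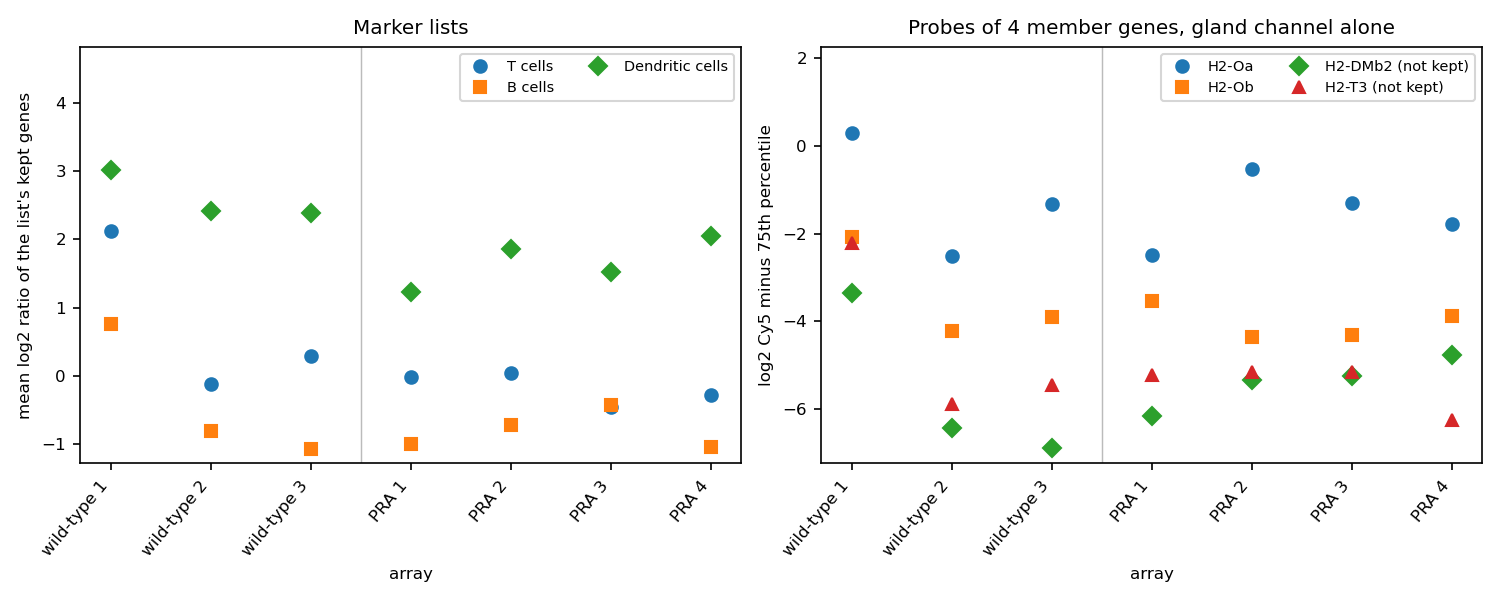
Left, mean log2 ratio (y axis) of T cell, B cell and dendritic cell marker lists by array (x axis). Right, log2 Cy5 intensity minus the array's 75th percentile (y axis) of the brightest probes of H2-Oa, H2-Ob and H2-DMb2 and a probe of H2-T3, the last 2 well above background in wild-type replicate 1 only, by array (x axis). Wild-type replicate 1 is highest in each series. The mean ratio of the dendritic cell list is lower on all PRA transgenic than on all wild-type arrays, but most of its genes overlap between genotypes.

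Markers of the cells that carry class II were set beside these genes. Dendritic cell markers (6 of 7 tested, with Xcr1 not well above background) had mean log2 ratios of 3.01, 2.42 and 2.39 in wild-type and 1.22, 1.86, 1.53 and 2.05 in PRA transgenic glands, with no overlap. Clec9a and Zbtb46 were lower at P under 0.05 and none passed after adjustment. Neither of them nor Cd209a had a reference signal above background on any array. Among the 6 genes, only Clec9a had ratios that did not overlap between genotypes. The summed Cy5 level of the list, 7.62, 3.91 and 3.73 against 1.81, 3.09, 2.62 and 3.82, overlapped. Macrophage markers (8 tested of 9 names, 2 of them for 1 gene) had means of 2.58 to 2.91 in wild-type and 2.62 to 3.20 in PRA transgenic glands. Mean ratios of the 3 tested class II genes ran from 3.56 to 3.63 in wild-type and from 3.62 to 4.20 in PRA transgenic glands. In the gland channel alone, relative to the 75th percentile, they ran from 3.03 to 3.55 and from 3.20 to 3.56. Luminal markers lay between 2.57 and 3.44 and basal markers between 2.67 and 3.01 on all arrays, overlapping between genotypes. The part of these cells in the class II values was not tested.

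Among the regulators, Ciita, which switches on class II, had ratios of 3.54, 3.24 and 2.90 in wild-type and 3.28, 3.39, 3.06 and 3.28 in PRA transgenic glands (log2 fold change 0.02, SE 0.18, adjusted p = 0.986). Its other tested probes gave -0.51 and 0.54, with no array on which the reference rose above background. Nlrc5, the class I regulator, had values of 1.28, 1.35 and 1.41 against 2.15, 0.92, 1.13 and 1.18, PRA transgenic replicate 1 above and the others below all wild-type values. Its difference was -0.00 (SE 0.29, adjusted p = 0.999). Rfxap and Rfxank, subunits of the RFX complex that binds the X box, differed by 0.10 (SE 0.11) and 0.03 (SE 0.13), with overlapping genotypes.

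Rfx5, the DNA-binding subunit of RFX (probe A_52_P335725, chromosome 3, 94764543 to 94764602), had ratios of -0.40, -0.64 and -0.60 in wild-type and -2.30, -0.72, -0.74 and -0.81 in PRA transgenic glands. All transgenic values were lower, but PRA transgenic replicate 1 set the size of the difference in ratio. The log2 fold change was -0.60 (SE 0.40, adjusted p = 0.710 from limma) and -0.21 without that array. In the gland channel alone, relative to the 75th percentile, Rfx5 stood at -2.36, -2.82 and -2.82 in wild-type and -3.15, -3.16, -3.52 and -3.17 in PRA transgenic glands, which did not overlap. That difference was -0.58 (unadjusted P = 0.00961, adjusted p = 0.431 from limma). In the gland channel 0 members were higher at P under 0.05 and 1, Rfx5, was lower, beside 4.16% and 4.56% of all probes.

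A list of 30 other genes of antigen processing, its transcription control and costimulation was counted beside the members. Of these, 29 were tested, 7 with positive log2 fold changes, beside 11863 of 22504 genes and unnamed features tested, and the median was -0.14, beside 0.01. None rose at P under 0.05 and 1 fell, 3.45% of the list beside 9.02% of all probes, and none passed after adjustment. The one that fell was Irf8, a factor of the interferon response and of dendritic cell development. Irf8 had ratios of 1.91, 1.86 and 1.52 in wild-type and 1.34, 1.18, 1.25 and 1.55 in PRA transgenic glands. PRA transgenic replicate 4 lay above the lowest wild-type value, and the log2 fold change was -0.43 (SE 0.15, unadjusted P = 0.0247, adjusted p = 0.476 from limma). Ctss and Lgmn, proteases of the class II pathway, are named for their size of difference after the values were seen. They differed by -0.72 (SE 0.48) and -0.67 (SE 0.36), which did not pass. For both, PRA transgenic replicate 4 was the highest of all arrays, at 1.98 and 0.46. Ctsl and Ifi30, from the same list, differed by -0.30 (SE 0.36) and -0.18 (SE 0.29).

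Of the 85 member probes with a position in the files, 70 lay on chromosome 17, which holds the complex. Of the 14 genes with several tested probes, 7 had probes of both signs. The share of probes well above background was 62.7% to 66.2% in wild-type and 56.7% to 60.2% in PRA transgenic arrays in Cy5, and 53.2% to 54.0% and 47.2% to 50.6% in the reference channel, and no spot was saturated. The number of arrays limits the precision of all these values.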

How the data were processed

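Scanner output of 7 Agilent 60-mer mouse arrays was used. The authors deposited processed red and green intensity values, background-subtracted and dye-normalized within each array by Agilent Feature Extraction 12.0 (per the submitters' processing notes), with surrogate values for dim spots. A second deposited table of log2 values proved to be the same log2 ratios centred on each probe's 7-array median. From the intensities, log2 Cy5 over Cy3 was computed per spot, leaving out controls and outliers, and averaged per probe. A probe was kept if Cy5 was above background by the software's test in every animal of either genotype (34289 of 56605). Genotypes were compared with limma 3.58.1 (lmFit, eBayes; R 4.3.3), and P was adjusted by Benjamini-Hochberg over all kept probes. Unless called unadjusted, p is that adjusted value. The steps were tested on simulated data. Each replicate is a different animal. Probe positions are on mm9 as the files give them. RefSeq names matched 71 member probes by accession and 14 by symbol, and 4 did not match. Promoters are of GRCm38.p6.

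The members and lists were chosen with earlier results of these data known. Named genes were, by role, the 3 brightest genes, each gene with P under 0.05 or genotypes that did not overlap, and all members without the H2- prefix. The brightest probe stood for a gene. Alternatives were normexp background correction (offset 50) with loess, the deposited log2 table, no filter on dim probes, a filter asking for both channels above background on all arrays, the Cy5 channel by itself minus each array's 75th percentile, quantile normalization, the methods' t-test, the median over a gene's probes, the replicate number as a block and each array left out. Gene sets and human data were not analysed here.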

Additional observations from a re-analysis of the deposited data

Results flagged for a closer look

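Among 88 groups of 4 arrays examined, 5 held 1 array far from the others, where about 1 in 20 (4.4) are expected by chance. The gap of that array to its nearest neighbour was 0.943 of the group's range for Rfx5 and 0.901 for Psmb9, an immunoproteasome subunit, both in PRA transgenic replicate 1. It was 0.852 for Tapbp, also in PRA transgenic replicate 1, and 0.834 for Fcgrt, the neonatal Fc receptor, in PRA transgenic replicate 4. The gap was 0.936 for the mean of the skeletal muscle markers in PRA transgenic replicate 4, at 2.35 against -0.75 to -0.55 on the other transgenic arrays. Muscle markers also varied in wild-type glands, at 1.76, -1.03 and 3.32. These gaps are of log2 ratios. In the gland channel alone Rfx5 in PRA transgenic replicate 1 stood at -3.15, beside -3.16, -3.52 and -3.17 in the other transgenic glands.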

How the results depend on the processing

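No alternative gave a member an adjusted p under 0.05, and the lowest for a named gene was 0.337. At an unadjusted P under 0.05, the count of member probes higher in PRA transgenic glands was 0 in the reported fit (4.54% of all probes in the same fit). It was 1 with normexp and loess (3.42%), 2 with no filter on dim probes (3.94%), 1 with both channels above background on all arrays (4.91%), 9 with quantile normalization (6.73%) and 2 with the methods' t-test (5.05%). With 1 array left out it was 0 to 6, with 6 without PRA transgenic replicate 2 (4.01%) and 2 without PRA transgenic replicate 4 (6.91%). The count lower was 1 (4.48%). It became 0 with normexp and loess (4.12%), 3 with no filter (5.17%), 0 with both channels above background (4.05%) and 0 to 2 with 1 array left out, with 0 without wild-type replicate 1 (4.39%) and 2 without wild-type replicate 3 (4.07%) or PRA transgenic replicate 1 (4.65%) or 3 (3.26%). The median log2 fold change ranged from -0.11 to 0.11 with 1 array left out and was 0.13 with quantile normalization, within the 0.27 by which arrays of 1 genotype spread.

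Of the 24 named genes, 3 changed sign to or from a value over 1 SE from 0 (changes nearer 0 were not counted). Ciita was at -0.20 and H2-Q1 at 0.0548 with normexp and loess, and H2-Q7 ranged from -0.20 without wild-type replicate 3 to 0.26 without wild-type replicate 2. The cause was not tested. Equal replicate numbers did not deviate together (correlations of 0.10, -0.30 and 0.04), so they share only a number. With the replicate block 1 member was higher (a Ciita probe; 5.07% of all probes), 0 lower (4.76%), and the median -0.00. A slide block could not be fitted, as there was 1 slide. Ratios of probes whose reference signal is near background are the least certain.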
